A study of Mus musculus with 6 samples.

Results

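Surface proteins by which mammary stem cells, luminal progenitors or tumour-initiating cells are sorted were described through the RNA of their 10 genes in mouse breast cancer cells. The genes were Cd24a, Cd44, Prom1, Epcam, Ly6a, Thy1, Kit, Itgb3, Procr and Tspan8. A probe set was taken as a member where the platform's annotation gave it 1 of these symbols and no other. This found 21 of the 45037 probe sets that are not controls, for 9 of the 10 genes. No probe set of the annotation used here named Ly6a, the gene of Sca-1, so it is not analysed here. The cells had been cultured in DMEM with fetal bovine serum and sorted for CD24 and CD29 on their surface into CD24+CD29+ cells, positive for both, and CD24-CD29- cells, negative for both, with 3 arrays (Affymetrix Mouse430_2) per group. The labels call both groups breast cancer stem cells and name no strain, line, animal, genotype or treatment other than the sort. The study's design text speaks of independent biological sample sets and nothing used here says whether these were separate cultures or sorts, so the p-values measure the spread between these arrays, which may be in part technical.

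In the mouse mammary gland, stem cell activity has been enriched by sorting for CD24 with high CD29, the integrin beta-1 chain. CD61 (Itgb3) and Kit mark luminal progenitors, while Procr and Tspan8 have been used to mark subsets of basal stem cells. In human breast tumours, cells with CD44 and little CD24 are a classical tumour-initiating phenotype. These proteins differ in kind. CD24, Thy1 and Sca-1 hang on a lipid anchor, CD44 and EpCAM are adhesion proteins, Kit is a receptor tyrosine kinase, Itgb3 is an integrin chain, Procr is a coagulation receptor, and Prom1 and Tspan8 cross the membrane several times. In RNA from a mixture of cells, fewer cells of a type and less RNA per cell cannot be told apart.

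RefSeq promoters were matched for 6 of the 9 measured genes. The 250 bases before a RefSeq start site are shown for 3 members that did different things in the comparison: Cd44, which was higher in CD24+CD29+ cells, Kit, which was lower, and Epcam, whose main probe set did not pass. They lie at chr2:102901666-102901915 (minus strand), chr5:75574737-75574986 (plus strand) and chr17:87635729-87635978 (plus strand) in GRCm38.p6, and run 5′ to 3′. Capitals mark matches, on either strand, to any of 5 motifs. These were the TATA box, spelled TATAAA, the AP-1 site, spelled TGANTCA with N for any base, the GC box, spelled GGGCGG, an E-box, spelled CACCTG, and the GATA motif, spelled AGATAA, none of which overlap in the windows shown.
Cd44: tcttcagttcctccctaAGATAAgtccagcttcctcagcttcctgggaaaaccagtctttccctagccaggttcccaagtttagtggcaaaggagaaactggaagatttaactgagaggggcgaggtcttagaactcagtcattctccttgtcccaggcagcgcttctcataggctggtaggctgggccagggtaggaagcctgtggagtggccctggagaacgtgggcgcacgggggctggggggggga
Kit: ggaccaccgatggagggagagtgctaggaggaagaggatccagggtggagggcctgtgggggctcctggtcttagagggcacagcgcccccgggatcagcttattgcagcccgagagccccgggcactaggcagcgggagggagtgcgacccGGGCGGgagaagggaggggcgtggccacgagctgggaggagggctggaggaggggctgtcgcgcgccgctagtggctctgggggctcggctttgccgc
Epcam: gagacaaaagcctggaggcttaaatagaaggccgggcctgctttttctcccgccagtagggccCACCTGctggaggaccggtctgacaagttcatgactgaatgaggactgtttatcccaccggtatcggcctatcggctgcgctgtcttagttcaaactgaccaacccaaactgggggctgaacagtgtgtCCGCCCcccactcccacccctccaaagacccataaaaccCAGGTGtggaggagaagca
The Cd44 window held 1 GATA match, a motif found in 10.3% of 27025 promoters of the same length (1 per gene). The Kit window held 1 GC box (32.9% of promoters), and the Epcam window 1 GC box and 2 E-boxes (17.1%). None of the 3 windows held the letters of a TATA box (13.0%) or an AP-1 site (6.87%). The G and C content was 56.4% for Cd44, 70.8% for Kit and 56.4% for Epcam, against a median of 52.0%. These matches are descriptions of the sequence and say nothing about binding.

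The deposited values were RMA values on the log2 scale, between 3.605 and 14.95, and a higher value means more hybridised RNA of that probe set. Within a group, Pearson's r between arrays across genes was 0.998 to 0.999, and between the groups it was 0.974 to 0.978 (genes are not independent replicates). Keratins of both mammary epithelial layers were bright in both groups: the luminal keratin gene Krt8 averaged 13.50 in CD24+CD29+ cells and 13.67 in CD24-CD29- cells, and Krt18 12.41 in CD24+CD29+ cells and 12.83 in CD24-CD29- cells. The basal keratin gene Krt5 averaged 13.66 in CD24+CD29+ cells and 13.01 in CD24-CD29- cells, and Krt14 12.58 in CD24+CD29+ cells and 11.59 in CD24-CD29- cells. Of 13 luminal and 10 basal markers measured, only 1 in each list had a mean under 6. The luminal one was the milk protein gene Wap, at 5.76 in CD24+CD29+ cells and 5.97 in CD24-CD29- cells. The basal one was the smooth muscle myosin gene Myh11, at 5.86 in CD24+CD29+ cells and 6.03 in CD24-CD29- cells. Another milk protein gene, Csn3, was bright, at 12.95 in CD24+CD29+ cells and 14.07 in CD24-CD29- cells (all named after their values were seen). Each difference is the CD24+CD29+ mean minus the CD24-CD29- mean in log2 units. Standard errors (SE) and p-values of members come from limma over all 45037 probe sets, Benjamini-Hochberg adjusted, with a threshold of 0.05; those of other genes come from the same fit over 18193 genes.

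Of the 21 member probe sets, 11 were higher in CD24+CD29+ cells, 7 were lower and 3 did not pass, where 63.9% of all probe sets passed, 29.2% as higher and 34.8% as lower. Their median difference was 0.20, against -0.05 over all probe sets. With 1 probe set per gene (the one with the highest mean, leaving out those ending in _x_at, which can cross-hybridise), Tspan8, Cd44, Procr, Thy1 and Cd24a were higher, Kit, Itgb3 and Prom1 were lower, and Epcam did not pass. In the fit over 18193 genes 34.4% were higher and 36.5% lower. The median over the 9 genes was 0.21, against -0.04 over all genes. This median is the value of Cd24a, which encodes a protein used for the sort and is counted here among the higher genes. Most differences were small: 1 probe set, of Cd44, was higher by at least 2-fold and none was lower by as much, where 2.29% and 1.15% of all probe sets were. None of the 9 genes' chosen probe sets reached 2-fold, where 3.01% of genes were higher and 1.66% lower by that much. The groups did not overlap for 18 of the 21 probe sets, where 68.2% of all probe sets did not overlap, and for 8 of the 9 genes, where 73.6% of all genes did not. In the gene fit 70.8% of genes passed in either direction. Among probe sets with a mean of at least 6, the members' count was 9 higher and 6 lower of 16, where 45.9% of all such probe sets were higher and 29.8% lower (75.7% in all), with a median difference of 0.10. All 9 member genes had a mean of at least 6, and among genes that bright 49.7% were higher and 29.3% lower, with a median of 0.13. Against genes of that brightness, 5 higher and 3 lower of 9 is near the background. The shares over all genes and over genes of that brightness are also the background for the counts of each list below.

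**Figure D1:**
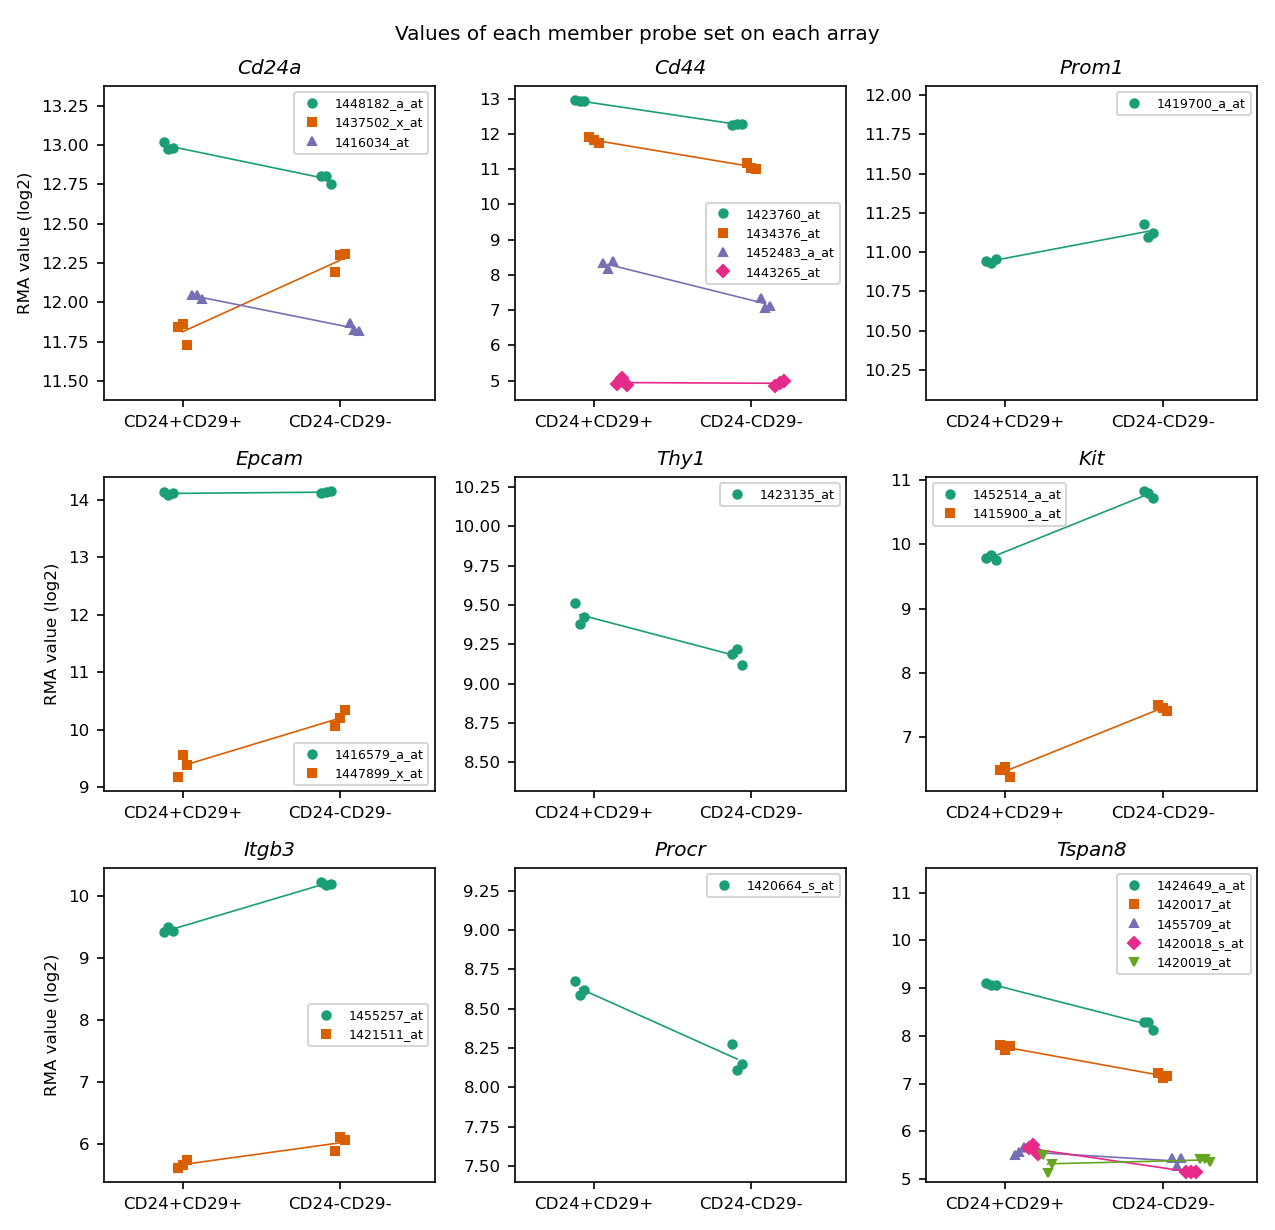
RMA values (log2, vertical axes with a scale of their own in each panel) of the 21 member probe sets on each of the 3 CD24+CD29+ arrays (left in each panel) and the 3 CD24-CD29- arrays (right), 1 panel per gene; each point is an array, lines join the group means. Both Kit probe sets lie about 1 unit lower on CD24+CD29+ arrays, the 3 brighter Cd44 probe sets lie higher, and the Cd24a probe sets cross.

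**Figure D2:**
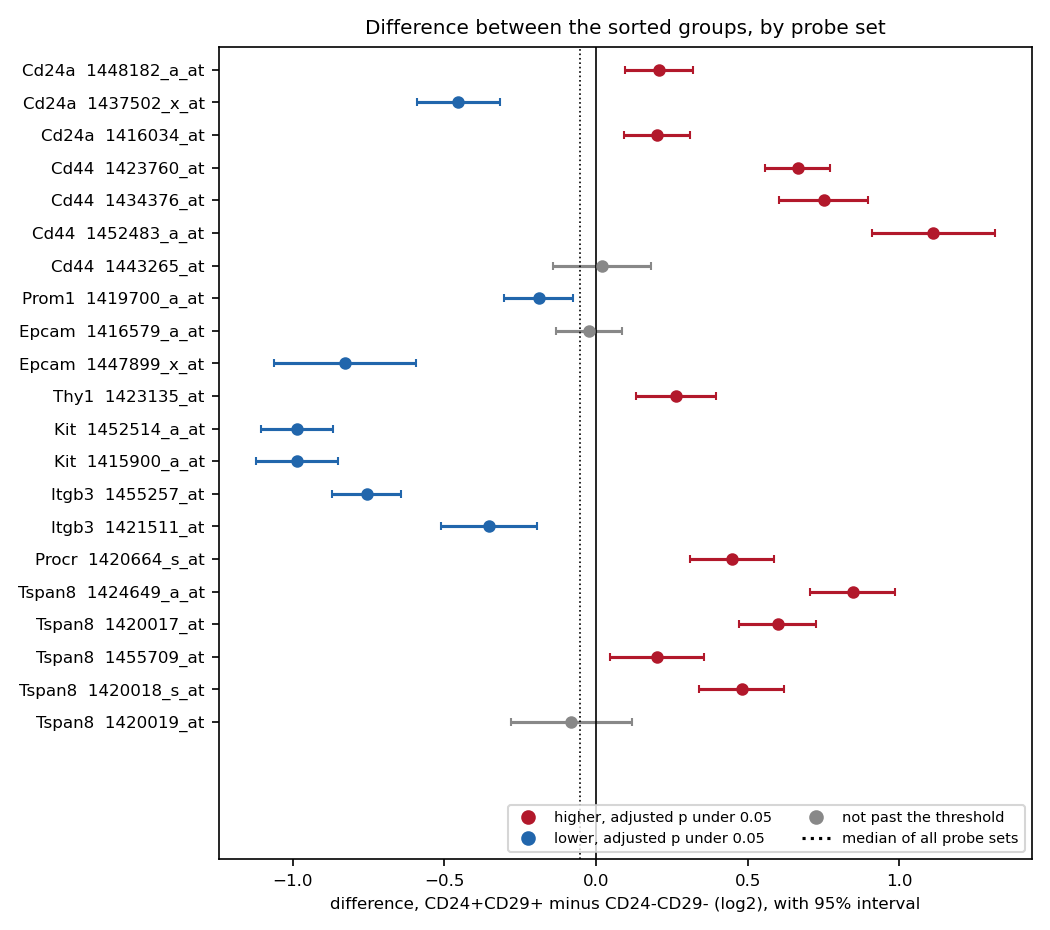
Difference between the groups (CD24+CD29+ minus CD24-CD29-, log2, horizontal axis) for the 21 member probe sets, with 95% intervals of the limma fit; red marks higher, blue lower and grey not past the threshold, and the dotted line is the median of all probe sets (-0.05). Values run from -0.99 for Kit to 1.11 for a Cd44 probe set.

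Cd24a encodes one of the proteins used for the sort, so its RNA is a check of the labels and not a finding. CD24+CD29+ cells had slightly more signal on 2 of its 3 probe sets and less on the third. On 1448182_a_at the values were 13.02, 12.98 and 12.98 on CD24+CD29+ arrays and 12.81, 12.81 and 12.75 on CD24-CD29- arrays, and the groups did not overlap. The difference was 0.21 (SE 0.05, limma adjusted p = 0.0054), or 1.155-fold, and 30.4% of all genes rose by as much or more. Probe set 1416034_at differed by 0.20 (SE 0.05, limma adjusted p = 0.0058). On 1437502_x_at the values were 11.85, 11.87 and 11.73 on CD24+CD29+ arrays, below the 12.19, 12.30 and 12.31 on CD24-CD29- arrays, a difference of -0.45 (SE 0.06, limma adjusted p = 0.00022). The suffix of this probe set marks probes that may bind other transcripts too. The gap between 1448182_a_at and 1437502_x_at within an array was 1.18 in CD24+CD29+ cells and 0.52 in CD24-CD29- cells, with no overlap. The mean of the 3 probe sets differed by -0.015 and did not pass (limma adjusted p = 0.75). Itgb1, the gene of CD29, was higher by 0.87 (SE 0.04), with 5 of its 6 probe sets passing in that direction and 1 dim probe set at -0.17. Cd24a signal in both groups was 11.73 or more on every array and probe set.

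Cd44, the main receptor for the matrix sugar hyaluronan, was higher in CD24+CD29+ cells on each of its 3 brighter probe sets. On 1423760_at the values were 12.95, 12.92 and 12.93 on CD24+CD29+ arrays, against 12.26, 12.28 and 12.26 on CD24-CD29- arrays. The groups lay far apart relative to their spread, and the difference was 0.67 (SE 0.05, limma adjusted p = 6.2e-06), or 1.59-fold, a rise reached by 9.12% of genes. Probe set 1434376_at gave 11.90, 11.82 and 11.74 on CD24+CD29+ arrays, against 11.16, 11.03 and 11.01 on CD24-CD29- arrays, a difference of 0.75 (SE 0.06). Probe set 1452483_a_at gave 8.33, 8.16 and 8.40 in CD24+CD29+ cells and 7.35, 7.07 and 7.12 in CD24-CD29- cells. That difference, 1.11 (SE 0.09, limma adjusted p = 1.2e-05), or 2.16-fold, was the largest rise of any member probe set under every setting tried, and its 95% interval of 0.91 to 1.32 lay above that of 1423760_at, 0.56 to 0.77. The fourth, 1443265_at, read 4.87 to 5.07 in CD24+CD29+ cells and 4.84 to 4.99 in CD24-CD29- cells, below the lower quartile of every array (5.20 to 5.41), and did not pass (0.02, 95% interval -0.14 to 0.18). Among 17 measured genes of hyaluronan synthesis, its receptors and CD44's partners, 10 were higher and 5 lower, and the median was 0.31. Mmp14, a membrane protease that cleaves CD44, was higher by 1.14 (SE 0.04), with 2 of its 3 probe sets passing. The hyaluronan-binding proteoglycan gene Vcan was higher by 1.06 (SE 0.04), with 2 dim Vcan probe sets of the opposite sign. Cd74, which encodes the MHC class II invariant chain and pairs with CD44 as a cytokine receptor, was lower (-1.58, SE 0.08). The hyaluronan-degrading Cemip stood at a dim 5.34 in CD24+CD29+ cells and 5.72 in CD24-CD29- cells (-0.38, SE 0.06), with 1 of its 3 probe sets passing.

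Tspan8, which encodes a tetraspanin, a membrane organiser, was higher in CD24+CD29+ cells on 4 of its 5 probe sets, and on the deposited scale its brightest probe set gave the largest rise of the 9 genes. On its brightest probe set, 1424649_a_at, CD24+CD29+ arrays read 9.11, 9.06 and 9.07 and CD24-CD29- arrays 8.28, 8.30 and 8.12. The groups did not overlap, and the difference was 0.85 (SE 0.06, limma adjusted p = 7.4e-06), or 1.80-fold; 5.13% of genes rose by as much. Probe set 1420017_at was at 7.81, 7.69 and 7.78 on CD24+CD29+ arrays, against 7.21, 7.13 and 7.15 on CD24-CD29- arrays (0.60, SE 0.06). The other 3 probe sets were dim. Of these, 1420018_s_at was higher by 0.48 (SE 0.06) and 1455709_at by 0.20 (SE 0.07, limma adjusted p = 0.029), a call that was lost when 1 array was left out (adjusted p = 0.057 without CD24+CD29+ replicate 2, 0.11 without CD24+CD29+ replicate 3 and 0.10 without CD24-CD29- replicate 2). Probe set 1420019_at read 5.13 to 5.50 in CD24+CD29+ cells and 5.36 to 5.42 in CD24-CD29- cells and did not pass (-0.08, 95% interval -0.28 to 0.12). The mean over the 5 probe sets differed by 0.41, less than the brightest alone and less than the 0.64 of Cd44 averaged in the same way. Cd44 was also above Tspan8 after quantile normalization (0.69 for Cd44, 0.64 for Tspan8) and cyclic loess (0.66 for Cd44, 0.63 for Tspan8), so which of them rose more depends on the processing. Of 18 other tetraspanin genes measured, 6 were higher and 8 lower, with a median of -0.08. Tspan14 and Tspan4 were higher, by 0.68 (SE 0.04) and 0.43 (SE 0.04), and Tspan15 and the dim leukocyte tetraspanin gene Cd37 lower, at -0.66 (SE 0.06) and -0.65 (SE 0.05).

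Procr encodes the endothelial protein C receptor, which presents protein C to be activated. Its single probe set, 1420664_s_at, read 8.68, 8.59 and 8.62 on CD24+CD29+ arrays and 8.28, 8.11 and 8.15 on CD24-CD29- arrays. Every CD24+CD29+ array was above every CD24-CD29- array, and the difference was 0.45 (SE 0.06, limma adjusted p = 0.00025), or 1.37-fold. After quantile normalization and cyclic loess it was 0.25 and 0.24, still past the threshold. Of 9 other measured genes of the protein C pathway and its neighbours in coagulation, 2 were higher and 5 lower, with a median of -0.23. However, 5 of the 9 genes had a mean under 6, which limits what this count and median can show. Pros1, the cofactor protein S, was higher by 0.77 (SE 0.04) and the thrombin receptor gene F2r by 0.39 (SE 0.05). F3, tissue factor, which starts coagulation, was at 8.15, 8.17 and 8.09 in CD24+CD29+ cells and 9.88, 9.91 and 9.84 in CD24-CD29- cells, a difference of -1.74 (SE 0.04, limma adjusted p = 1.9e-07). The gene of protein C itself, Proc, was dim, at 5.31 in CD24+CD29+ cells and 5.65 in CD24-CD29- cells (-0.34, SE 0.05).

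Thy1, a lipid-anchored protein of fibroblasts, neurons and T cells as well as of stem cell sorts, read 9.51, 9.38 and 9.42 on CD24+CD29+ arrays and 9.19, 9.22 and 9.12 on CD24-CD29- arrays. The difference was 0.26 (SE 0.06, limma adjusted p = 0.0037), or 1.20-fold, and it lost the call after quantile normalization (0.07, limma adjusted p = 0.22) and cyclic loess (0.07, limma adjusted p = 0.26). Markers of fibroblasts, which express Thy1 and Procr, moved the same way. Of 10 listed, 8 were higher and none was lower, and 3 had a mean under 6. Their summed linear signal was 9952 to 10290 on CD24+CD29+ arrays and 4404 to 4448 on CD24-CD29- arrays. Dcn, the brightest, weighs most in the sums, at 12.74 in CD24+CD29+ cells and 11.59 in CD24-CD29- cells (named after its values were seen). Pdgfra was higher by 0.55 (SE 0.06), with 2 of its 3 probe sets passing. Of 10 endothelial markers 4 were higher and 1 lower, with summed signals of 815.8 to 846.3 on CD24+CD29+ arrays and 578.5 to 601.6 on CD24-CD29- arrays. However, 7 of the 10 had a mean under 6. The brightest was Robo4, at 8.49 in CD24+CD29+ cells and 7.38 in CD24-CD29- cells (named after its values were seen), so it weighs most in the sums. Pecam1, the defining endothelial gene, was dim, at 4.87 in CD24+CD29+ cells and 5.00 in CD24-CD29- cells, and did not pass. The part of these cell types in the Thy1 and Procr values was not tested. Among 10 measured genes of the Ly6 family and other lipid-anchored proteins, 3 were higher and 3 lower (median -0.15). The Ly6 gene Ly6e and the urokinase receptor gene Plaur were higher by 0.53 (SE 0.04) and 0.51 (SE 0.05), while the complement inhibitor gene Cd59a and Ly6k were lower, at -0.79 (SE 0.05) and -0.21 (SE 0.07).

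Kit, the receptor for stem cell factor, had the largest fall among the members, and its 2 probe sets gave the same size. On 1452514_a_at CD24+CD29+ arrays read 9.79, 9.84 and 9.76 and CD24-CD29- arrays 10.83, 10.80 and 10.73. On 1415900_a_at they read 6.49, 6.54 and 6.38 in CD24+CD29+ cells and 7.50, 7.45 and 7.41 in CD24-CD29- cells. No array of one group reached the other on either. Both differences were -0.99 (SE 0.05 and 0.06, limma adjusted p = 1.5e-06 and 2.6e-06), or 1.98-fold lower, and 1.72% of genes fell by as much or more. Of 13 measured genes of Kit's ligand and signalling, 7 were higher and 4 lower (median 0.15), and 3 were higher when all probe sets of a gene were averaged. Among all genes with a mean of at least 6, 49.7% were higher and 29.3% lower, so the first count is near that background. The ubiquitin ligase gene Cbl and the adaptor gene Sh2b3, both negative regulators of Kit, were higher by 0.72 (SE 0.04) and 0.60 (SE 0.05). The adaptor genes Pik3r1 and Gab2, which link receptors to PI3K, were lower at -0.52 (SE 0.04) and -0.45 (SE 0.05). Of the 3 Gab2 probe sets 2 passed. Leukocyte markers were also lower in CD24+CD29+ cells (10 of 14, none higher), with summed linear signals of 803.4 to 857.8 on CD24+CD29+ arrays, against 1073 to 1100 on CD24-CD29- arrays, but 8 of the 14 had a mean under 6 and the pan-leukocyte gene Ptprc was at 4.85 in CD24+CD29+ cells and 4.94 in CD24-CD29- cells, which did not pass. Their part in the values of Kit, Cd74, Cd37 and Cxcr4 was not tested.

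Itgb3, the integrin beta-3 chain (CD61), which pairs with the alpha-V chain to bind fibronectin, vitronectin and osteopontin, was lower too. On 1455257_at CD24+CD29+ arrays were at 9.41, 9.49 and 9.44, and CD24-CD29- arrays at 10.22, 10.19 and 10.20. The difference was -0.76 (SE 0.05, limma adjusted p = 4.2e-06), or 1.69-fold lower, a fall reached by 3.09% of genes. The dim 1421511_at read 5.61 to 5.74 in CD24+CD29+ cells and 5.89 to 6.10 in CD24-CD29- cells, and differed by -0.35 (SE 0.07, limma adjusted p = 0.0022), or -0.23 after quantile normalization and -0.22 after cyclic loess, still past the threshold. Beta-3 pairs with 2 alpha chains, both named here after their values were seen. Itgav, the alpha-V gene, was higher by 0.55 (SE 0.04), and Itga2b, the alpha-IIb gene, did not pass (-0.0015, SE 0.06). The list around Itgb3 also held integrin chains that do not pair with it, matrix ligands and linker proteins. Of its 15 measured genes 11 were higher, Itgb1 among them, and 3 lower, with a median of 0.39. The largest rises were those of Itgb1, which is another beta chain and the gene of the sort antigen CD29, and of the integrin-linked kinase gene Ilk, at 0.70 (SE 0.06). The largest falls were those of Fermt2, which encodes an integrin activator, at -0.27 (SE 0.05) with 1 of its 3 probe sets at 0.25, and of the dim Itga2, at -0.16 (SE 0.06). The count of lower genes fell to 1 after quantile normalization, cyclic loess, median centring, either filter on dim genes, the other variance model or an adjusted p of 0.01, and without CD24+CD29+ replicate 2 or CD24-CD29- replicate 1.

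Prom1, which encodes CD133, a cholesterol-binding protein of membrane protrusions, had 1 probe set. It read 10.94, 10.93 and 10.96 on CD24+CD29+ arrays and 11.18, 11.09 and 11.12 on CD24-CD29- arrays. The groups did not overlap, but the difference was small, -0.19 (SE 0.05, limma adjusted p = 0.0095), or 1.14-fold lower (-0.29 after cyclic loess); 34.1% of genes fell by as much or more. Of 7 other genes of membrane protrusions 5 were higher, none lower and 2 did not pass (median difference 0.26). They were led by Podxl, which encodes a sialomucin, at 0.67 (SE 0.05) and the actin-capping gene Eps8 at 0.65 (SE 0.04). Only 1 of the 2 Podxl probe sets passed.

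Epcam, the epithelial adhesion protein, was bright in both groups on its main probe set. On 1416579_a_at CD24+CD29+ arrays read 14.12, 14.08 and 14.12 and CD24-CD29- arrays 14.11, 14.14 and 14.14. The groups overlapped, and the difference was -0.02 (95% interval -0.13 to 0.09, limma adjusted p = 0.70). This signal lay near the highest value on any array, 14.95, where differences can be compressed. The second probe set, 1447899_x_at, read 9.18, 9.55 and 9.39 on CD24+CD29+ arrays and 10.07, 10.20 and 10.33 on CD24-CD29- arrays, without overlap. Its difference was -0.83 (SE 0.10, limma adjusted p = 0.00015), with an interval of -1.06 to -0.59 that did not meet that of the first, and it carries the suffix of probes that may bind other transcripts. Of 13 measured genes of EpCAM's partners and of epithelial adhesion, 5 were higher and 5 lower, with a median of 0.01. Fhl2, which encodes a protein that carries the EpCAM signal to the nucleus, was higher by 1.24 (SE 0.04), and Adam17, a sheddase that cleaves EpCAM, by 0.99 (SE 0.06). The tight junction genes Cldn1 and Cldn4 were lower, at -0.66 (SE 0.06) and -0.53 (SE 0.05), but only 1 of the 4 Cldn1 probe sets passed.

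Other genes used to mark mammary progenitors or tumour stem cells went both ways. Of 19, 11 were higher and 6 lower, with a median of 0.25. The R-spondin receptor gene Lgr5 read 9.18, 9.17 and 9.24 in CD24+CD29+ cells and 7.58, 7.52 and 7.35 in CD24-CD29- cells, a difference of 1.71 (SE 0.06). Only 1 of the 2 Lgr5 probe sets passed. Nrp1, a semaphorin and VEGF co-receptor, was higher by 1.14 (SE 0.09), with 3 of its 4 probe sets passing. The chemokine receptor gene Cxcr4 read 6.57, 6.43 and 6.42 in CD24+CD29+ cells and 8.28, 8.11 and 8.10 in CD24-CD29- cells (-1.69, SE 0.07), and the luminal mucin gene Muc1 was lower at -0.98 (SE 0.05). Over all partner lists together, 59 of 119 distinct genes were higher, 38 lower and 22 did not pass; their median was 0.15. The 59 include Itgb1, the gene of the sort antigen CD29. Over all genes 34.4% were higher and 36.5% lower, with a median of -0.04. Of the 119 genes, 21 had a mean under 6. Without genes that dim, 58 partner genes were higher and 30 lower. Among all genes with a mean of at least 6, 49.7% were higher and 29.3% lower. Over the 119, median centring gave 63 higher and 30 lower, and averaging the probe sets of a gene 51 higher and 40 lower. Among luminal markers 3 of 13 were higher and 9 lower (median -0.26, summed linear signal 43640 to 44720 on CD24+CD29+ arrays against 59990 to 60530 on CD24-CD29- arrays), and among basal markers 7 of 10 were higher and 2 lower (median 0.52, 30310 to 31890 on CD24+CD29+ arrays against 18530 to 18930 on CD24-CD29- arrays). Neither list moved as one: the luminal Esr1 and Foxa1 were higher by 1.11 (SE 0.05) and 0.73 (SE 0.04), and the basal Mylk was lower, at -0.84 (SE 0.07), all named after their values were seen and Esr1 and Mylk each with 1 probe set of the opposite sign. Csn3 was the brightest luminal marker in CD24-CD29- cells, at 14.07 against 12.95 in CD24+CD29+ cells, so it weighs heavily in the luminal sums. Only 1 of the 2 Csn3 probe sets passed. The part of luminal and basal cells in the members' differences was not tested.

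**Figure D3:**
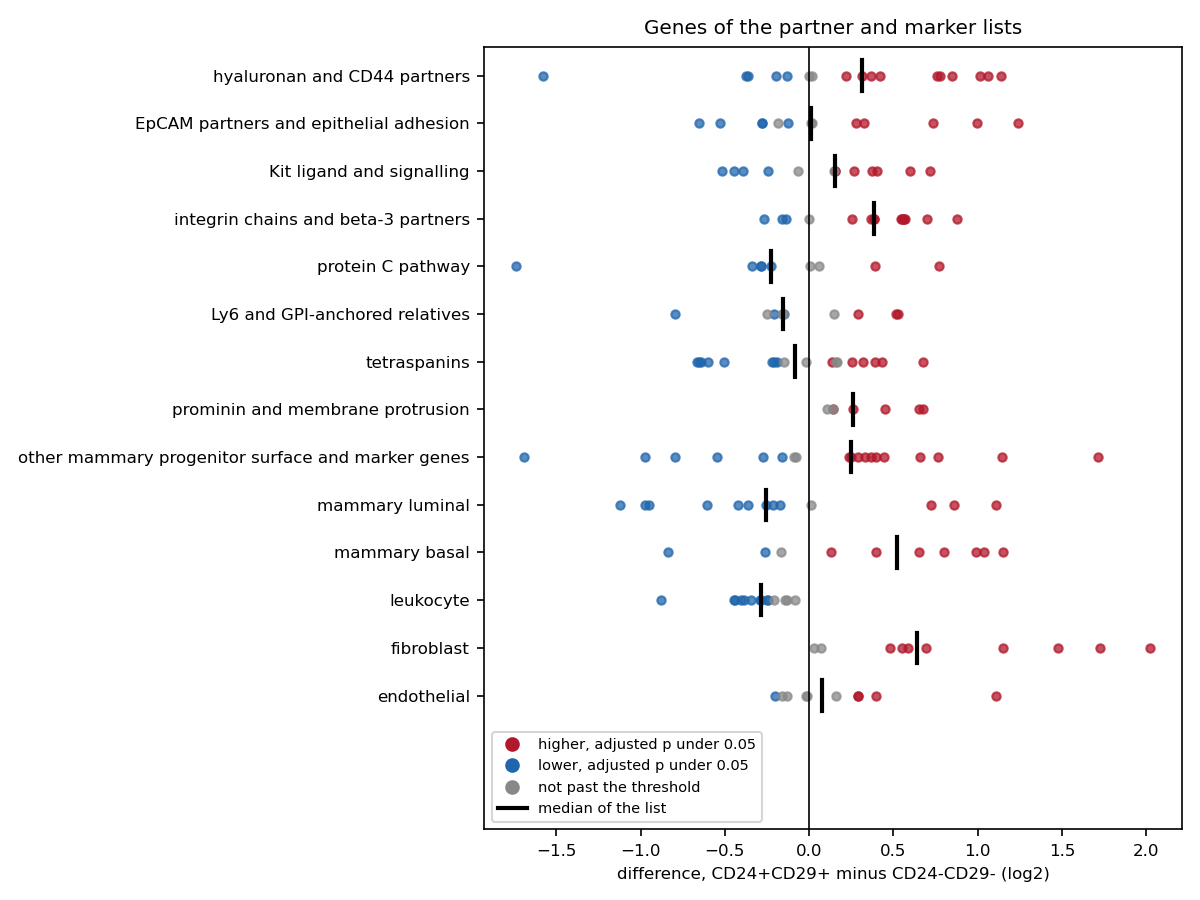
Difference between the groups (CD24+CD29+ minus CD24-CD29-, log2, horizontal axis) for each measured gene of 9 partner lists and 5 marker lists; points are genes, coloured by call, and black bars are list medians. Medians run from -0.29 for leukocyte markers to 0.64 for fibroblast markers.

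These directions are those of the deposited scale, whose normalization settings are not stated in the labels. Poly-A control RNAs, which are added to each sample, gave less signal on CD24+CD29+ arrays (median difference -1.14). Scaling each array to their mean moved the median of all genes to 0.94, against -0.04 as deposited. Under this scaling the rises of Tspan8, Cd44, Procr, Thy1 and Cd24a were larger, between 1.18 and 1.82, the falls of Itgb3 and Prom1 turned to rises of 0.22 and 0.78, and Kit was at -0.01. The order of the genes did not change, since the scaling adds the same amount to every difference. Kit and Itgb3 therefore stayed lowest relative to the other members, and their direction depends on which scale is used. Nothing used here states how much control RNA was added to each sample, so the scaled values cannot be read as amounts per sample.

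**Figure D4:**
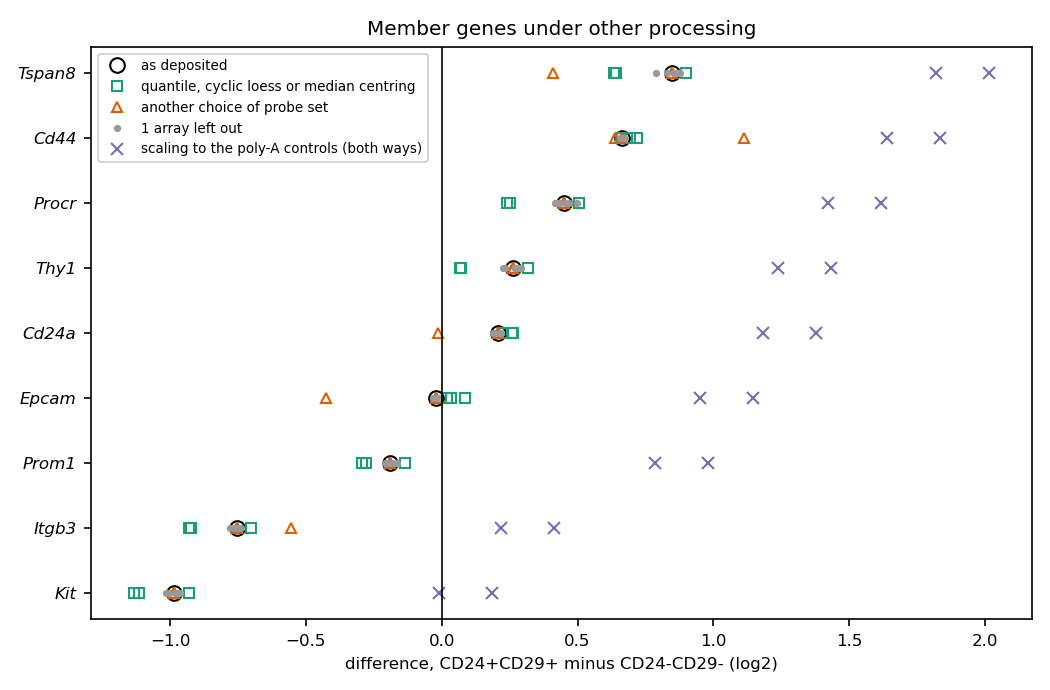
Difference (CD24+CD29+ minus CD24-CD29-, log2, horizontal axis) of the 9 member genes under each processing; open circles are the deposited values, squares other normalizations, triangles other choices of probe set, dots the values with 1 array left out and crosses scaling to the poly-A controls. Tspan8, Cd44, Procr and Thy1 stay above 0 under all of them, and Kit, Itgb3 and Prom1 stay below 0 except under scaling to the controls.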

How the data were processed

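RNA of 6 arrays, 3 per sorted group, was measured on Affymetrix Mouse430_2. The deposited values are log2 values that the authors made with RMA and Partek, per the submitters' processing notes; their versions and settings are not stated in the labels. There are no detection calls and no depth, and the number of arrays limits the precision. Gene symbols came from the platform annotation, which can be old (34945 with 1 symbol, 932 with several, 9160 with none, 64 controls left out). Entrez identifiers of all 9 member genes were found in RefSeq.

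limma 3.58.1 in R 4.3.3 (lmFit, eBayes, no block) was fitted over 45037 probe sets for the members and over 18193 genes for the gene counts and lists, with Benjamini-Hochberg adjustment over all of them. A gene was read by its brightest single-symbol probe set not ending in _x_at where it had another. The fit was also run on simulated data with independent noise and few changed genes. These data differ in the share of genes that passed, so that run does not bear on the calls here. One gene, Ly6a, was left out for want of a probe set with its symbol. The members and lists were chosen with earlier results of these data known. All members are named, and, by rule, from each partner list the 2 largest rises and 2 largest falls that passed, with Itgb1, Krt8, Krt18, Krt5, Krt14, Ptprc, Pecam1 and Pdgfra. Alternatives were other normalizations, scaling to the poly-A controls, filters on dim features (mean under 6, or the dimmest 40%), another variance model, thresholds and choice of probe set, a replicate block and leaving out each array.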

Additional observations from a re-analysis of the deposited data

How the results depend on the processing

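Quantile normalization, cyclic loess, median centring, filters on dim features and another variance model left the direction and call of the member probe sets they tested as deposited, with these exceptions, whose cause was not tested. Thy1 lost its call at 0.07 after quantile normalization and cyclic loess. Epcam 1416579_a_at, not past the threshold, was at 0.018 after quantile normalization, 0.085 after cyclic loess and 0.033 after median centring. Tspan8 1420019_at was at 0.06 after quantile normalization and 0.060 after cyclic loess. Past the threshold in both but moved by over 1.5 times were Procr, Itgb3 1421511_at and Tspan8 1455709_at, the last at 0.35 after quantile normalization and 0.34 after cyclic loess, and after cyclic loess Prom1 at -0.29. Averaging all probe sets of a gene, Cd24a was at -0.015 and Epcam passed at -0.43. With either filter on dim genes, which tests fewer genes, the count of lower genes was 2 in the hyaluronan list and 2 in the protein C list, and 5 or 6 among leukocyte markers. After median centring it was 3 in the hyaluronan list and 1 in the Ly6 list. Requiring at least 2-fold left 1 probe set higher and 0 lower, 0 genes higher and 0 lower, and 6 partner genes higher and 3 lower; this rule only narrows the calls. At an adjusted p of 0.01, Tspan8 1455709_at lost its call.

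Scaling to the poly-A controls adds one constant to every difference. It gave 18 member probe sets higher and 0 lower, 8 genes higher and 0 lower, and 114 partner genes higher and 3 lower. Cd24a 1437502_x_at was then at 0.52, Prom1 at 0.78, Epcam at 0.95 and 0.15, Itgb3 at 0.22 and 0.62 and Tspan8 1420019_at at 0.89. Scaling to the median of the controls other than trp, chosen after seeing the data, gave 21 and 0 probe sets, 9 and 0 genes and 116 and 3 partner genes, with Cd24a 1437502_x_at at 0.72, Prom1 at 0.98, Epcam at 1.15 and 0.34, Kit at 0.18 on both probe sets, Itgb3 at 0.41 and 0.82 and Tspan8 1420019_at at 1.09.

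Leaving out each array in turn gave 10 to 11 member probe sets higher and 7 lower, 5 genes higher and 3 lower, and 57 to 60 partner genes higher and 33 to 36 lower; Cd44 1443265_at ranged from -0.044 to 0.059 and Tspan8 1420019_at from -0.173 to 0.0135, never past the threshold. With the replicate number as a block, 11 member probe sets were higher and 7 lower, 5 genes higher and 3 lower, and 59 partner genes higher and 41 lower. Deviations of same-numbered arrays correlated at 0.222, -0.054 and 0.044, and 3 of 6 arrays correlated best with their own number, so the numbers were not taken as pairs. Array data have no read depth; probe sets near the lower quartile, such as the dim Cd44 and Tspan8 ones, limit what can be seen.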
